A study of Drosophila melanogaster with 3 samples.

Results

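The genes described here are those that build the contractile apparatus of muscle, fuse myoblasts into muscle fibres, attach muscles to their surroundings or direct the muscle fate. Of 36 listed symbols, 35 were found in the Ensembl annotation of Drosophila melanogaster (release 115), out of 13945 protein-coding genes on the chromosome arms 2L, 2R, 3L, 3R, 4 and X. They comprise 21 sarcomere and myofibril genes, 9 fusion and adhesion genes and 5 muscle regulators. The symbol Unc-89 is not in the annotation, which carries that giant muscle kinase gene as Obsc. Obsc is not counted among the 35, and it had 0 summits in the classes used below and no region at its promoter in any list.

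Binding of CG30403, a protein with no assigned role in the sources used here, was mapped in whole embryos, 0 to 24 hours old, by sequencing of immunoprecipitated chromatin (ChIP-seq). All samples belong to 1 group: embryos of both sexes, pooled, from a transgenic line that stably expresses CG30403 with GFP at its C terminus, precipitated with an antibody against GFP, in 3 biological replicates. No untagged or input sample was analysed here, and the replicates of this group give the error of each value. Binding was seen only for the tagged protein, and because whole embryos were used, muscle and all other tissues contributed chromatin. A region present in a small share of cells cannot be told apart from one weakly occupied in all of them.

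Muscle contraction rests on the sarcomere, in which thick filaments of myosin pull on thin filaments of actin that are anchored at the Z disc. Drosophila body wall muscles arise by fusion of founder cells with fusion-competent myoblasts, which recognise each other through immunoglobulin-domain receptors and then remodel their actin through a Rac pathway. Mef2 is a transcription factor that drives the expression of many of these genes, and integrins join the finished fibre to its tendon cell.

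The authors deposited for the group a list of 7827 reproducible ("optimal") regions on build dm6. Each region has a summit, the position of its highest signal, and a signal value, a score from the authors' peak caller with no stated scale that is used here only within a list. The optimal regions are the 7827 strongest regions of the pooled list. The replicate lists hold 29373, 30000 and 30000 regions for replicates 1, 2 and 3 and reach far into weak regions, so the 7827 strongest regions of each, its top list, were used for counts by replicate. The lists give no read counts, so that depth is not known, and the intervals given below cover the counting of genes only.

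A promoter summit lay within 500 bp of an annotated transcription start site (TSS) of the gene. An intronic summit lay inside the gene, in none of its exons and farther than 500 bp from all its TSSs. An upstream summit lay 501 to 5000 bp before the first TSS, that is, the TSS nearest the gene's 5' end. The genes had 83 gene and summit pairs in these classes, 14 promoter, 53 intronic and 16 upstream, and these pairs come from 82 different summits, since 1 summit lies both upstream of rst and in an intron of kirre. In exons of Mlc2, rst and Mef2 lay 3 summits, of which that of rst is also an intronic summit of kirre.

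**Figure D1:**
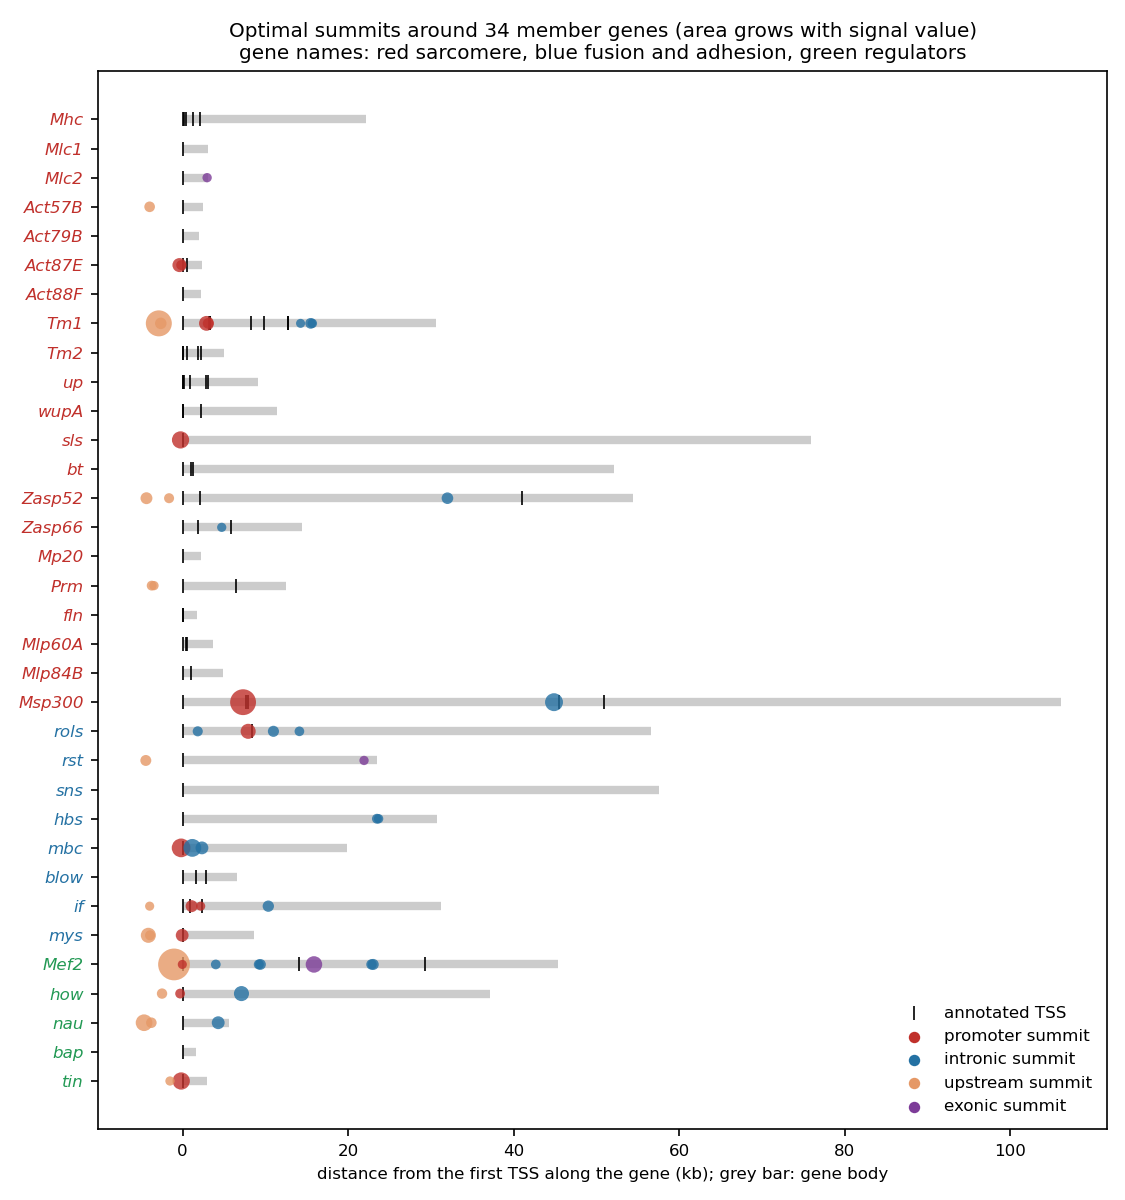
Positions of the optimal summits around 34 of the genes (kirre is drawn separately). Grey bars are gene bodies, black ticks annotated TSSs and circles summits, with an area that grows with the signal value; the horizontal axis is the distance from the first TSS in kb. Large circles lie at the inner TSS of Msp300 and upstream of Tm1 and Mef2, and many of the short sarcomere genes have no circle.

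The share of these genes with a promoter summit was close to that of all genes. A promoter summit was found at 11 of 35 genes (31.4%, exact 95% interval 16.9% to 49.3%), beside 30.2% of all protein-coding genes. In the top lists of replicates 1, 2 and 3, 10, 10 and 11 of the 35 genes had a promoter summit (mean 10.3 ± 0.58, SD, n = 3). The genes were Msp300, sls, Tm1 and Act87E among the sarcomere genes, mbc, rols, mys and if among the fusion and adhesion genes, and tin, how and Mef2 among the regulators. With a window of 250 bp the count was 7, beside 24.4% of all genes, and it was also 7, beside 18.1%, where a reciprocal overlap of 50% was asked in every replicate top list.

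Intronic summits were found at 12 of 35 genes (34.3%, exact 95% interval 19.1% to 52.2%), and 9.64% of all protein-coding genes had one. The 12 genes were not the same set as the promoter-bound ones, as kirre, hbs, Zasp52, Zasp66 and nau had an intronic but no promoter summit. Room for such summits also differed, since the median intron sequence that could carry one was 6.30 kb in these genes and 0.131 kb in all genes. Counted per 10 kb of that sequence, these genes had 0.648 intronic summits (replicate top lists 0.660 ± 0.012, SD, n = 3) and all genes had 0.536 (0.531 ± 0.00225). Without kirre, which alone holds 32 of the 53, the value was 0.484 (0.537 ± 0.013), below that of all genes in the optimal list and within 1 SD of it in the replicates.

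Upstream summits were found at 11 of 35 genes (31.4%, exact 95% interval 16.9% to 49.3%), beside 27.3% of all protein-coding genes. This count followed the limit set, with 3 genes up to 2000 bp (10.1% of all genes) and 17 up to 10000 bp (45.5%). In total 19 of 35 genes (54.3%) had a summit in at least 1 of the 3 classes, and 50.2% of all genes did.

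Among the giant and cytoskeletal proteins of muscle, Msp300 had the strongest promoter summit of the 35 genes. Msp300 encodes a nesprin that links nuclei and the Z disc to the cytoskeleton. Its region on dm6, chr2L:5107845-5108371, had a signal value of 1751.6 and rank 102 of the optimal list, and ranks 89, 88 and 132 in replicates 1, 2 and 3. The summit lay 339 bp upstream of an inner TSS, 7296 bp downstream of the first, so it belongs to an internal promoter in the annotation. The sls promoter, of the titin-like protein Sallimus that connects the Z disc to the thick filament, had a signal value of 724.6 and rank 732, with ranks 1250, 799 and 636 in the replicates, and its summit lay 258 bp upstream of the only TSS. All 3 replicates therefore placed Msp300 far above sls.

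The thin filament genes divided. Tm1, one of the tropomyosins that cover the actin filament, had a promoter summit of signal value 513.7 and rank 1361, 278 bp upstream of an inner TSS (ranks 580, 1464 and 2050), and a second one of 221.5 at 71 bp. Act87E, a muscle actin gene, had 2 promoter summits 389 and 185 bp upstream of its first TSS, with signal values of 449.3 and 172.9. In each replicate both overlapped a single region, at ranks 1732, 1722 and 1750, the narrowest spread of ranks among the 11 promoters. The other actin genes of the list, Act57B, Act79B and Act88F, had no optimal promoter summit, and neither did Tm2, up (troponin T), wupA (troponin I) or Mp20, a calponin-like protein.

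Among the fusion genes, mbc, which encodes the guanine nucleotide exchange factor that activates Rac in the fusing cell, had a promoter summit of signal value 874.1 and rank 515. Its ranks in the replicates were 1013, 478 and 454. The summit lay 190 bp upstream of the mbc TSS and 46 bp from the TSS of Nup98-96, a nuclear pore gene, so it cannot be given to mbc alone. The rols promoter, of the adaptor that couples the founder cell receptors to the cytoskeleton, had a signal value of 532.1 and rank 1282, with ranks 1141, 1320 and 1273, 474 bp upstream of an inner TSS.

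Both integrin genes on the list had promoter summits of middle rank. The summit of mys, the beta PS integrin, had a signal value of 355.8 and rank 2403 (replicate ranks 3267, 2799 and 1852), and lay 62 bp from the TSS of mys and 147 bp from that of fs(1)h. The gene if, the alpha PS2 integrin that pairs with mys in muscle, had a summit of 301.6 at rank 2982 (replicate ranks 3348, 2637 and 3568). That summit was 192 bp downstream of a TSS, the only strongest promoter summit of the 11 genes on that side. A second summit of if had a signal value of 136.9.

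Among the regulators, tin, the NK homeobox factor required for the heart, had a promoter summit of signal value 729.9 and rank 722 (replicate ranks 972, 960 and 518). The how promoter, of an RNA-binding protein needed for muscle and tendon maturation, had 171.1 and rank 5864, and its replicate ranks of 3995, 8078 and 5087 put it outside the top list of replicate 2. The Mef2 promoter summit had 133.1 and rank 7576, near the end of the optimal list. Its region was overlapped at rank 5612 in replicate 2 and at rank 8670 in replicate 3, and by no region of replicate 1, where the best region at any Mef2 TSS had rank 7952. The Mef2 call therefore rested on 1 top list, and that of how on 2.

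**Figure D2:**
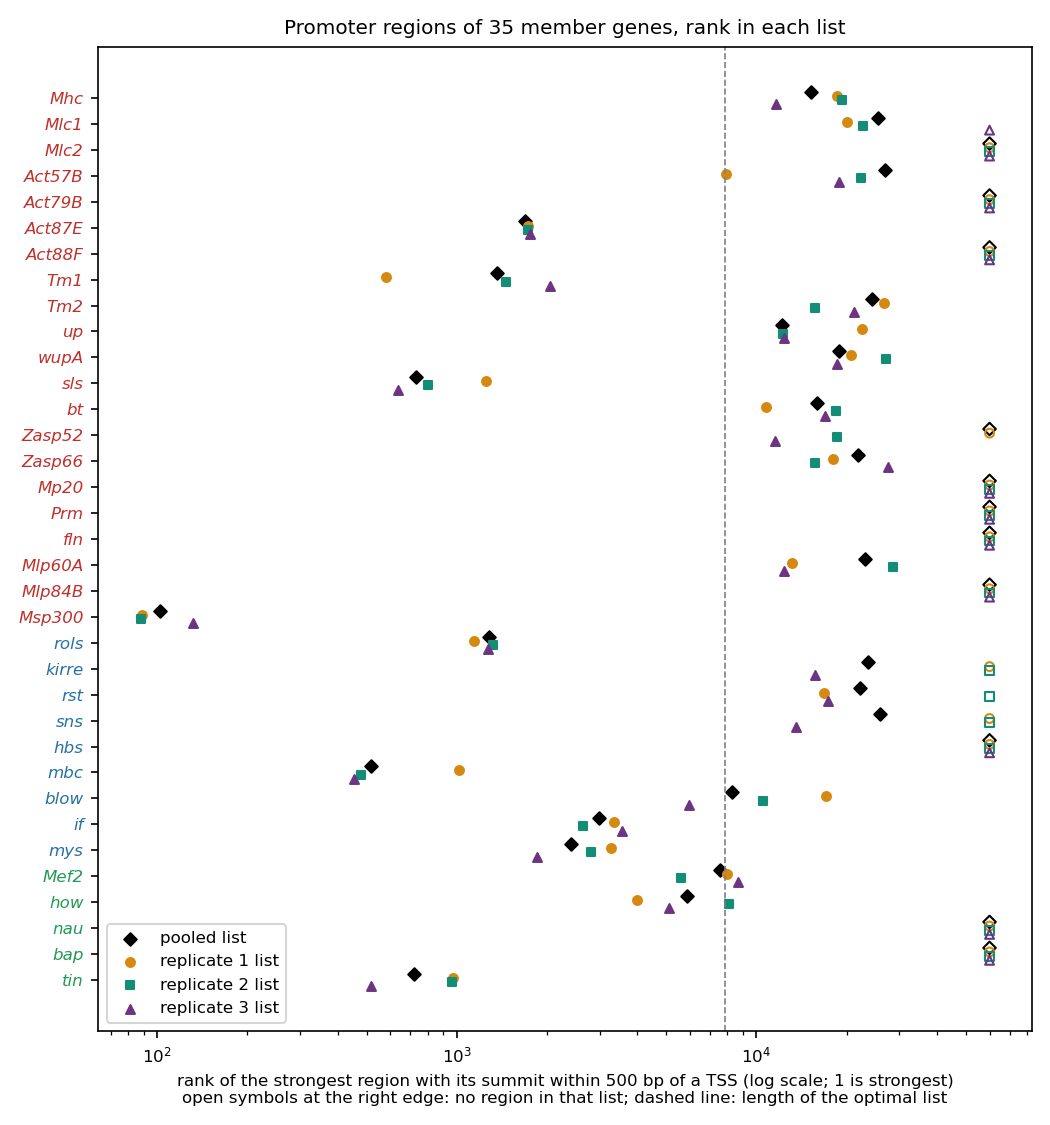
Rank of the strongest region whose summit lies within 500 bp of any TSS of each gene, in the pooled list and the 3 replicate lists (log scale, rank 1 is strongest). Filled symbols are ranks, open symbols at the right edge mark lists with no such region, and the dashed line is the length of the optimal list, 7827; Msp300 stands leftmost with ranks of 88 to 132, and the pooled rank of blow, 8293, lies just right of the line.

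The windows below show the sequence under the summits that carry these values, 101 bp around the summit on the strand of the gene, from the RefSeq copy of the Release 6 assembly (dm6). The promoters of Msp300, tin and sls are shown because they had the highest signal values among those not shared with another gene, and Tm1 and Act87E because they are the thin filament genes with a promoter summit. The introns of mbc and kirre and the upstream site of nau stand for the other classes, and how carries the only CAGCTG among the intronic windows shown. Capitals mark the motifs searched, and the rest is in lower case.
Msp300 promoter, chr2L:5108123-5108223, plus strand: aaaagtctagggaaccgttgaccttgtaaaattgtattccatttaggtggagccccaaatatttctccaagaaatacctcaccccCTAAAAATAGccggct
sls promoter, chr3L:2115819-2115919, minus strand: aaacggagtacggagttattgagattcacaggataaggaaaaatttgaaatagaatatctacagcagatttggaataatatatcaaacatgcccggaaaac
tin promoter, chr3R:21378749-21378849, plus strand: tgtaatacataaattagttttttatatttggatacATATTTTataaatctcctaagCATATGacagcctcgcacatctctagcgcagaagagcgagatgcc
Tm1 promoter, chr3R:15281043-15281143, plus strand: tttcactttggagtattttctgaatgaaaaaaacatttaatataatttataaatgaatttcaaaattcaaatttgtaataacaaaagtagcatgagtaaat
Act87E promoter, chr3R:13425544-13425644, plus strand: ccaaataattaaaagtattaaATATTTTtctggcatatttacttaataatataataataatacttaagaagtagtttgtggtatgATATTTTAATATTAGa
mbc intron, chr3R:23782880-23782980, plus strand: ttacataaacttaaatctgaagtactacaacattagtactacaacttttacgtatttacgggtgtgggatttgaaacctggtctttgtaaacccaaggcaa
kirre intron, chrX:3097160-3097260, plus strand: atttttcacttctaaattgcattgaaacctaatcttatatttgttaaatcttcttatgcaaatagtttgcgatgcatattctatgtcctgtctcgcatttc
how intron, chr3R:22049243-22049343, plus strand: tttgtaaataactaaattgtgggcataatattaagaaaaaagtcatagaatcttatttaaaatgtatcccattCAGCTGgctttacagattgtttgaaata
nau upstream, chr3R:23722972-23723072, minus strand: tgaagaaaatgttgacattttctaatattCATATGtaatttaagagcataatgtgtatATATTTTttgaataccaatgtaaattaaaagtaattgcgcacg

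The windows are rich in A and T. GC content was 16.8% in the Act87E window and 18.8% in that of Tm1, and reached 41.6% in that of Msp300. Over the 82 member summits the median GC content was 33.2%, beside 31.7% over all 7827 optimal summits.

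The motifs searched, on both strands and within 50 bp of the summit, were the E-box CANNTG bound by basic helix-loop-helix factors, the palindromic form CAGCTG, the GAGA motif written GAGAG, the DNA replication-related element TATCGATA, the CA repeat CACACACA, the A-rich word AAAATAT and the Mef2 site. Every CAGCTG also counts as CANNTG, and AAAATAT can overlap a Mef2 site. CANNTG was in 28 of 82 member windows (34.2%) and in 34.5% of all optimal windows, and AAAATAT in 15 (18.3%) and 16.9%. CAGCTG was in 2 (2.44%) and 3.45%, and TATCGATA in 1 (1.22%) and 2.21%. These 4 pairs of shares differed by less than the counting error of the member share (exact 95% interval). GAGAG was in 1 member window (1.22%), that of the how promoter, and in 8.38% of all optimal windows, a gap of -7.2 points that is larger than that error. Within 25 bp of the summit the gap was -3.1 points, below that error. In promoter windows GAGAG was in 1 of 14 (7.14%), beside 7.75% of all promoter windows. It was in 0 of the 68 other member windows, beside 8.92% of all other windows. The error counts windows as independent, but 32 of the 82 lie in kirre and some neighbouring summits overlap 1 replicate region. CACACACA was in 0 of the member windows and in 0.869% of all.

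The Mef2 site was in 7 of 82 member windows (8.54%), and 7.35% of all optimal windows held it. In promoter windows it was in 3 of 14 (21.4%), beside 7.17% of all promoter windows. Those 3 are the Msp300 window and the 2 windows of Act87E, so they come from 2 genes. The 2 Act87E windows do not overlap, though their regions do. The Msp300 site near the window's 3' end is CTAAAAATAG. A match is a description of letters in the window and says nothing of the binding of Mef2.

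Side and distance of the strongest promoter summit were compared with those of all promoter-bound genes. Of 11 promoter-bound genes, 10 (90.9%) had the summit upstream of the TSS, and 90.9% of all 4205 promoter-bound genes did. The median distance from the TSS was 258 bp for the 11 genes and 146 bp for all, and 6 of the 11 (54.5%, exact 95% interval 23.4% to 83.3%) against 24.3% of all lay over 250 bp away, so that the interval includes the share of all genes. Only mbc and mys, 2 of 11 (18.2%, exact 95% interval 2.28% to 51.8%), had a summit that also lay within 500 bp of the TSS of another protein-coding gene, and 59.4% of all promoter-bound genes did.

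**Figure D3:**
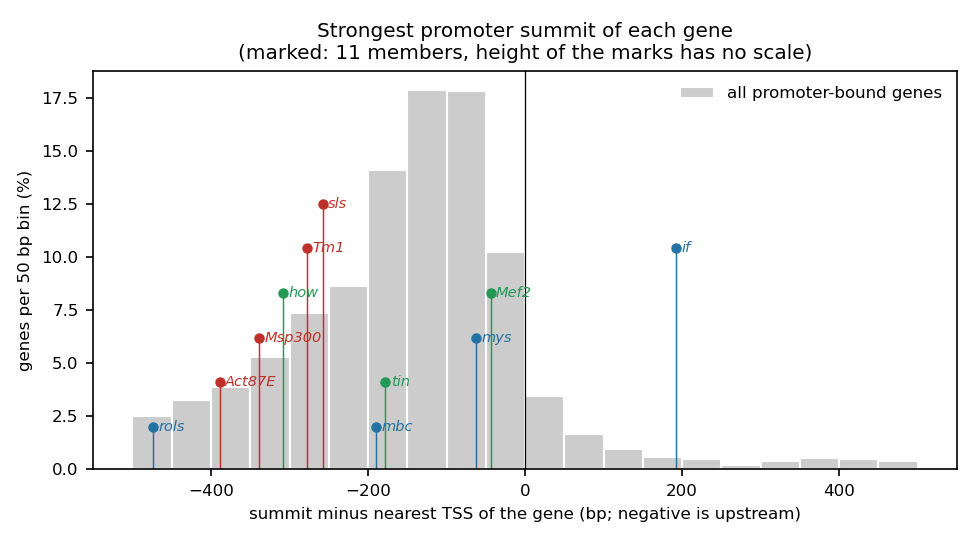
Distance from the TSS to the strongest promoter summit, in bp, negative upstream. Marks are the 11 genes with a promoter summit, coloured by role, with heights that carry no scale, and grey bars are the percent of all 4205 promoter-bound genes per 50 bp; 6 of the marks lie over 250 bp upstream.

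Close neighbours were counted as well. For 27 of 35 genes (77.1%, exact 95% interval 59.9% to 89.6%) no TSS of another protein-coding gene lies within 1000 bp, and the same holds for 57.1% of all genes. Among genes without such a neighbour, 5 of 27 (18.5%; mean 5 ± 1 over the replicate top lists, SD, n = 3) had a promoter summit, beside 16.8% of all 7960 genes of that kind. By role these were 2 of 17 sarcomere genes, 1 of 6 fusion and adhesion genes and 2 of 4 regulators. The comparison was chosen after the data had been seen.

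Some of the genes with no optimal promoter summit had a weaker region there. The pooled list is labelled as holding background as well as peaks, so a region below the optimal ones may be background. Of these 24 genes, 13 (54.2%, exact 95% interval 32.8% to 74.5%) had a weaker region of the pooled list at the promoter, and 32.6% of the 9740 such genes among all protein-coding genes did. In all 3 replicates such a region was present at 9 of the 24 (37.5%, exact 95% interval 18.8% to 59.4%), beside 17.5% of all. Such a region could lie at any TSS of a gene, and the median number of TSSs was 2 in the 35 genes and 1 in all genes. Whether the higher shares go with the number of TSSs was not tested. The 9 were Mhc, Act57B, Tm2, up, wupA, bt, Zasp66, Mlp60A and blow. Just inside the optimal list stood Mef2, at rank 7576, and just outside it blow, a protein of the fusion-competent myoblast that regulates actin at the fusion site, at pooled rank 8293. The blow promoter had rank 17070 in replicate 1, 10528 in replicate 2 and 5961 in replicate 3, so it reached the top list in replicate 3 alone. The promoter region of Mhc, the single gene for muscle myosin heavy chain, had pooled rank 15190 and ranks 18544, 19298 and 11665 in the replicates.

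The sarcomere genes were compared with the fusion and adhesion genes in each class. A promoter summit was found at 4 of 21 sarcomere genes (19.0%, exact 95% interval 5.45% to 41.9%) and at 4 of 9 fusion and adhesion genes (44.4%, 13.7% to 78.8%). The replicate top lists gave 4, 4 and 4 sarcomere genes and 4, 4 and 5 fusion and adhesion genes. The difference was -25.4 percentage points (mean over replicates -29.1 ± 6.4, SD, n = 3), with 1 gene worth 4.76 points among the sarcomere genes and 11.1 among the fusion and adhesion genes. It was larger than the spread between replicates, but the counting intervals of the 2 groups overlap and both include the 30.2% of all protein-coding genes. The summits of mbc and mys also lie within 500 bp of the TSS of another gene, and no sarcomere promoter summit does. Among genes with no other TSS within 1000 bp, 2 of 17 sarcomere genes and 1 of 6 fusion and adhesion genes had a promoter summit. The promoter summits themselves had a median signal value of 481.5 at sarcomere genes (6 summits) and 355.8 at fusion and adhesion genes (5 summits), with ranges of 172.9 to 1752 and 136.9 to 874.1 that overlap.

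Intronic summits were found at 4 of 21 sarcomere genes (19.0%) and at 5 of 9 fusion and adhesion genes (55.6%, exact 95% interval 21.2% to 86.3%). The difference of -36.5 points (mean over replicates -41.8 ± 9.2) goes with a difference in length. The median gene was 5.0 kb long with 1.28 kb of intron that could hold a summit among the sarcomere genes, and 30.7 kb long with 23.3 kb of it among the fusion and adhesion genes. Per 10 kb of such intron, sarcomere genes had 0.332 summits (replicates 0.314 ± 0.085, SD, n = 3) and fusion and adhesion genes 0.708 (0.732 ± 0.041). Without kirre, the fusion and adhesion genes had 0.442 (0.589 ± 0.115). In the optimal list this exceeds the sarcomere value of 0.332 by less than the SD of 0.115. In the replicates the mean exceeds the sarcomere mean by more than either SD. The counts in the optimal list are only 6 sarcomere and 8 fusion and adhesion summits. They include neighbours in Tm1 and in hbs that overlap 1 region in each replicate.

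Upstream summits were found at 4 of 21 sarcomere genes (19.0%) and 3 of 9 fusion and adhesion genes (33.3%, exact 95% interval 7.49% to 70.1%). The difference of -14.3 points (mean over replicates -16.4 ± 8.1) did not keep its sign under other definitions. It was 4.8 points with summits up to 2000 bp upstream, and 14.3 points when summits inside another protein-coding gene were left out.

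**Figure D4:**
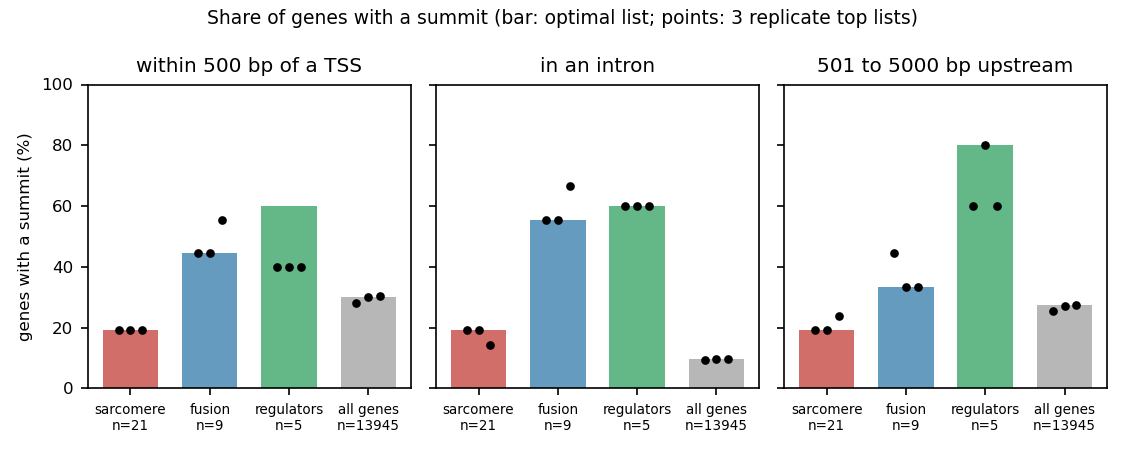
Percent of genes with a promoter, intronic or upstream summit in the 21 sarcomere genes, the 9 fusion and adhesion genes, the 5 regulators and all 13945 protein-coding genes. Bars are the optimal list and points the top lists of replicates 1 to 3; the sarcomere bar lies below the fusion and adhesion bar in each panel, and the regulators' points at promoters lie below their bar.

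The regulators had a promoter summit in 3 of 5 genes, beside 30.2% of all protein-coding genes. Each of the replicate top lists had 2. An intronic summit was found in 3, beside 9.64% of all genes, and an upstream summit in 4, beside 27.3%. The bap gene, of a homeobox factor of the visceral mesoderm, had none in any class. With 5 genes, such counts carry wide exact 95% intervals. They were 14.7% to 94.7% for the promoter and the intronic share and 28.4% to 99.5% for the upstream share. Only the promoter interval includes the share of all genes. The upstream count was 3, 4 and 3 in the top lists of replicates 1, 2 and 3. Median intron sequence that could hold a summit was 4.01 kb in the regulators and 0.131 kb in all genes.

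Of the 53 intronic summits, 32 lay in kirre, which encodes the receptor by which founder cells recognise fusion-competent myoblasts. At 394.1 kb with 6 annotated TSSs it is the longest of the 35 genes, and its intronic summits came to 0.834 per 10 kb of intron. Their signal values ran from 129.4 to 712.9 with a median of 223.6, and the median of all intronic summits in the genome was 223.4. Of the 32 summits, 23 were in the top lists of all 3 replicates, 7 in 2 and 2 in 1.

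The kirre summits were unevenly spaced. The median gap between neighbours was 6.22 kb and the widest 71.0 kb, and 23 of the 32 lay more than 200 kb from the first TSS, in the part of the gene that holds 4 of its TSSs. More than 10 kb from every kirre TSS lay 25 of them. The gene is 394.1 kb long, and the share of its intron in either part was not measured. The summit of highest signal value, 712.9 at rank 752 (replicate ranks 909, 1010 and 559), was 2340 bp upstream of an inner TSS. Of the 32, 5 lay within 500 bp of the TSS of another gene inside kirre, namely Syx4, CG32795 or CG3588. The matching share was not counted for intronic summits of all genes. The kirre gene had 0 promoter summits, that is, no optimal summit lay within 500 bp of a TSS of kirre itself. At those TSSs the pooled list had its best region at rank 23511, replicate 3 at rank 15632, and replicates 1 and 2 no region at all.

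**Figure D5:**
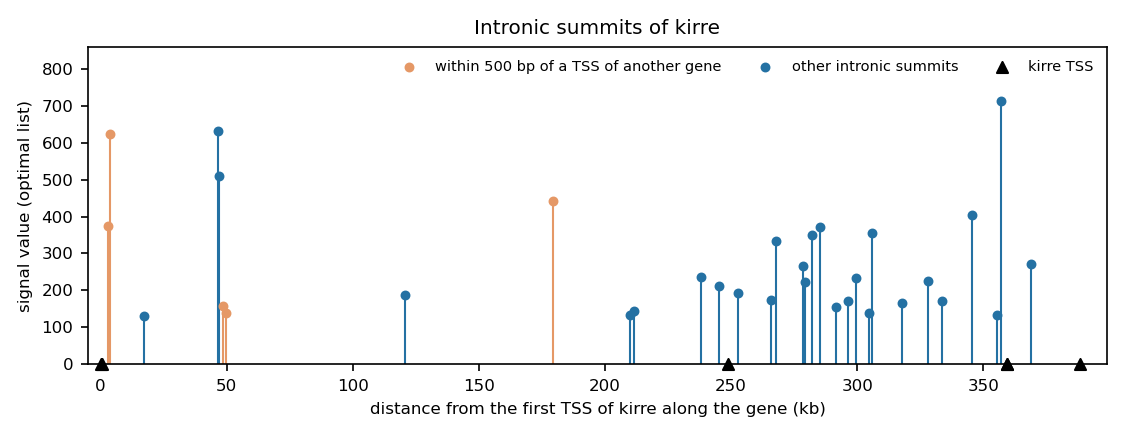
Signal value of the 32 intronic summits of kirre by distance from its first TSS in kb. Triangles are kirre TSSs and orange marks the 5 summits within 500 bp of another gene's TSS. The other summits are blue, and 23 of the 32 lie beyond 200 kb in this gene of 394.1 kb.

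The other receptors of this family were shorter and had fewer intronic summits. The gene rst, which acts in founder cells with kirre and lies inside the kirre gene on the opposite strand, had 0 summits in 17.1 kb of intron, 1 upstream summit of signal value 236.7 that is also a kirre intronic summit, and 1 exonic summit of 143.7. The gene sns, the receptor of fusion-competent myoblasts, had 0 summits in 48.9 kb of intron, none at its promoter and none upstream. Its paralogue hbs had 2 intronic summits, of signal values 174.2 and 150.3, 200 bp apart. Both overlapped a single region in each replicate (ranks 4441, 6139 and 6259). Counted as 2 summits they came to 0.794 per 10 kb of intron, beside 0.834 in kirre, but the hbs value rests on 1 region in each replicate.

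The intronic summit of highest signal value among all 53 was in Msp300, at 792.4 and rank 604 (replicate ranks 417, 481 and 1104), 648 bp upstream of a further inner TSS. In mbc an intronic summit 1165 bp into the gene had 783.6 and rank 626 (replicate ranks 499, 872 and 567), and a second at 2328 bp had 359.8. With its promoter summit of 874.1, mbc thus had 3 summits near its 5' end, and their replicate ranks ran from 454 to 2680. In rols, 3 intronic summits had signal values of 186.1, 245.6 and 162.1, and in if a single one had 258.9.

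The other sarcomere genes had intronic summits of at most 276.6. Tm1 had 3, of signal values 130.3, 223.3 and 151.4. The first of these had no region in replicate 1, and the other two overlapped a single region in each replicate. The Z disc genes Zasp52 and Zasp66, whose PDZ-domain proteins help to hold the Z disc together, had 1 each, of 276.6 and 139.8, and that of Zasp66 had no region in replicate 3. Neither sls, with 16.6 kb of intron, nor bt, the projectin gene of the fourth chromosome, with 22.8 kb, had an intronic summit.

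Among the regulators, how had an intronic summit of signal value 532.9 at rank 1279 (replicate ranks 948, 1431 and 1287), above that of its promoter. The nau gene, the fly relative of MyoD, had one of 361.1 with replicate ranks of 2230, 2222 and 2760. Mef2 had 5, from 166.6 to 242.4, and a stronger summit of 657.3 in an exon (replicate ranks 2849, 983 and 608). Of the 5, 2 neighbours shared 1 region in all 3 replicates, and another 2 shared 1 in replicates 2 and 3.

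The 16 upstream summits had a median signal value of 215.5, beside 262.0 for upstream summits of all genes. Of the 16, 7 (43.8%) lay within 500 bp of the TSS of another protein-coding gene, beside 63.8% of the 5052 upstream gene and summit pairs of all genes. Inside another protein-coding gene lay 8 (50%), beside 44.2%, and 5 (31.3%) lay in neither, beside 16.03%. The highest signal value of all member summits, 2697.2 at rank 29 (replicate ranks 31, 32 and 31), lay 1045 bp upstream of Mef2 but 171 bp from the TSS of Pdrg1 and also within 500 bp of that of Pal1. The Tm1 summit of 1773.4 at rank 97 (replicate ranks 97, 108 and 93) lay 2883 bp upstream of Tm1 but 96 bp from the TSS of Cp190, an insulator protein gene. These 2 sites lie in promoter windows of other genes, and which gene they act on was not measured.

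Other upstream summits with a neighbour were those of nau (673.9 at rank 831, replicate ranks 674, 916 and 838, 309 bp from the TSS of CG10365), Zasp52 (296.3, 265 bp from that of CG33465), tin (142.0, 41 bp from that of mod(mdg4)) and if (135.6, 141 bp from that of Sap30, with CG9609 also in reach). The summits upstream of mys, of 534.3 and 177.0, lay inside fs(1)h and overlapped 1 region in each replicate. A second Tm1 summit, of 269.7, lay inside CG4338, 51 bp from its TSS and within 500 bp of that of Cp190. In each replicate it overlapped the same region as the Tm1 summit of 1773.4. A second Zasp52 summit, inside tun, had 182.6. The 5 upstream summits with neither kind of neighbour were those of Act57B (218.1), Prm, the paramyosin gene of the thick filament (173.1 and 145.3), how (202.2) and the second of nau (212.9).

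In all, 16 of the 35 genes had no summit in the 3 classes, and neither had 6942 of all 13945 protein-coding genes. Among the 16, 13 were sarcomere genes, namely Mhc, Mlc1, Mlc2, Act79B, Act88F, Tm2, up, wupA, bt, Mp20, fln, Mlp60A and Mlp84B. They include the myosin heavy chain, both muscle myosin light chains of the list and both troponin genes of the list. At least 1 summit was found at 38.1% of the 21 sarcomere genes, beside 50.2% of all genes. Mlc2 had 1 summit of signal value 145.9 in an exon, 392 bp from the TSS of Rsod. Of the rest, 2 were the fusion genes sns and blow and 1 the regulator bap.

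Member summits stood near the whole list in strength and in their recurrence among replicates. Their median signal value was 223.7 (range 129.4 to 2697.2), beside 244.0 over the optimal list (128.9 to 6456). By class, the medians were 402.6 for promoter summits of these genes and 281.7 for those of all genes, and 223.3 and 223.4 for intronic ones. Of the 82 summits, 36 (43.9%) were in the stronger 50% of the optimal list. In the top lists of all 3 replicates were 61 of 82 (74.4%), and 74.0% of all optimal summits. A region in all 3 full replicate lists was present for 79 of 82. The exceptions were a Tm1 intronic summit, the Zasp66 summit and the Mef2 promoter summit named above. That share was not counted for all optimal summits. As the full lists hold 29373, 30000 and 30000 regions, it does not set these genes apart.

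Genes of the same pathways outside the 35 gave the wider setting. Of 20 other sarcomere and calcium handling genes found, 7 had a promoter summit (35%), 4 an intronic and 7 an upstream one. The 3 highest promoter signal values among them were at the formin gene Fhos (1936.7 at rank 74, replicate ranks 90, 75 and 86), tmod, which caps the pointed end of thin filaments (452.4), and cpa, a subunit of the actin capping protein (274.9), whose summit is also in the shg promoter window. Of 16 other fusion genes, 9 had a promoter summit (56.3%), 6 an intronic and 5 an upstream one. They included Hem of the SCAR actin-nucleating complex (1045.8 at rank 355, shared with IleRS), the kinase gene Pak (564.9) and Vrp1, the fly WIP (296.2, shared with mei-S332).

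Of 19 other adhesion and attachment genes, 4 had a promoter summit (21.1%), 5 an intronic and 8 an upstream one. The 3 highest values were at Pax, the paxillin gene (1768.0 at rank 98, shared with Alp12 and CG13085), scb, an alpha integrin (515.1), and zip, the non-muscle myosin heavy chain (138.3). Of 30 other muscle transcription factors, 4 had a promoter summit (13.3%), 7 an intronic and 10 an upstream one. They were led by the T-box gene org-1 (762.5), da, the partner of basic helix-loop-helix factors (432.6), and Cf2 (157.1, shared with CG3008). The exact 95% intervals of the promoter shares were 29.9% to 80.3% for the other fusion genes and 3.76% to 30.7% for the transcription factors, so that all 4 lists' intervals include the 30.2% of all genes. Intronic summits were at 20%, 37.5%, 26.3% and 23.3% of the sarcomere, fusion, adhesion and transcription factor lists, beside 9.64% of all genes. The intron length of these 4 lists was not measured. Upstream summits were at 35%, 31.3%, 42.1% and 33.3%, beside 27.3%.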

How the data were processed

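ChIP-seq of CG30403 tagged with GFP was done on 3 biological replicates of whole embryos, with chromatin sonicated to 200 to 800 bp, per the labels. The authors deposited narrowPeak lists for each replicate, the pooled replicates and the reproducible optimal regions; the dm3 lists and the control were not used here. The sources used here do not name the aligner, the peak caller or the reproducibility threshold. The signal value is a score deposited by the authors, and the summit is the region start plus the deposited offset.

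An optimal region was matched to the replicate region of highest signal that overlapped it by at least 1 bp. Counts were made with Python 3.11.15, pandas 2.3.3, numpy 2.4.6 and scipy 1.17.1 (Clopper-Pearson intervals), and figures with matplotlib 3.10.9. No test between gene groups was run, since there is 1 group of samples. The class assignment was tested on simulated data. The members, other gene lists and motifs were chosen with earlier results of these data known. Named are all members with a summit, the 3 other genes per list with the highest promoter signal, and genes that share a member promoter summit; neighbours of other summits were named after their values were seen. In the other lists, Jp was not matched, and Arf6 and Pak were found by an older symbol. Alternatives were other windows, stronger peaks, merged regions, TSS sets, replicate overlap and left-out replicates; adding Obsc, leaving out kirre and isolated TSSs were chosen after seeing the data.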

Additional observations from a re-analysis of the deposited data

How the results depend on the processing

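Of 59 alternative values, 49 stayed near the main one (a count within 1.5 times of it, a difference within 1 SD between replicates or, for motifs, within the counting error), 8 moved farther and 2 changed sign. The number of genes with a promoter summit was 7 with a window of 250 bp (24.4% of all genes) and 7 where the region was overlapped reciprocally by 50% in every replicate top list (18.1% of all genes). The number with an upstream summit was 3 up to 2000 bp (10.1% of all genes), 17 up to 10000 bp (45.5%), 5 among the stronger 50% of optimal peaks (16.3%) and 6 outside other protein-coding genes (17.0%). The upstream difference of sarcomere minus fusion and adhesion genes, -14.3 points, was 4.8 points up to 2000 bp and 14.3 points outside other genes, both of the opposite sign, and -1.6 points among the stronger 50%; the cause was not tested. The GAGAG share of member windows minus that of all windows was -3.1 points within 25 bp of the summit and -7.2 within 50 bp. Leaving out each replicate gave a mean of 10 to 10.5 promoter-bound members. Replicate lists of 3913 regions gave 9.0, and the share of all genes in those lists was not counted. In the stronger 50% of optimal peaks, 9 members (25.7%) had a promoter summit, beside 19.7% of all genes. Promoter and intronic differences kept their sign under each alternative run. No paired analysis was possible because the study has 1 group of samples. Unknown depth limits what the absence of a summit means.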
